A study of Mus musculus with 12 samples.

Results

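The genes described here encode 4 kinds of lysosomal protein and the transcription factors that act on them. They are 3 factors of the TFEB family, 6 lysosomal membrane proteins, 8 proteases, 14 glycosidases or sulfatases, and 4 lipid hydrolases, thioesterases or activators. The 35 genes were taken by name, and each was represented by its brightest array probe. All 35 had a probe on the array, and 34 of them were among the 18592 genes tested in a fit of 8 arrays. Here and below, all genes include transcripts on the array that matched no gene symbol. Ctsh (cathepsin H) was left out of that fit because its probe was well above background on 1 of the 8 arrays.

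NIH3T3 cells, a mouse fibroblast line, were exposed for 18 h to PP242 at 2 µM, to rapamycin at 50 nM or to DMSO, the solvent. There were 4 one-colour arrays per treatment, numbered 1 to 4, and the design text calls them independent experiments. PP242 competes with ATP at the mTOR kinase and so acts on both mTOR complexes, whereas rapamycin binds mTORC1 allosterically through FKBP12. All cells were 1 line in culture medium with calf serum, and RNA was amplified before labelling.

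Lysosomes are acidic organelles in which hydrolases break down proteins, glycans, lipids and nucleic acids. Most soluble hydrolases reach them from the Golgi by mannose 6-phosphate receptors, and the membrane holds glycoproteins, channels and transporters. TFEB, TFE3 and MITF are related basic helix-loop-helix factors that bind E-box sequences in promoters of many lysosomal genes. Active mTORC1 phosphorylates TFEB at the lysosome, and 14-3-3 proteins then hold it in the cytoplasm. Only RNA levels were measured here, so neither the phosphorylation nor the location of the factors is known.

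Promoter sequences are shown because the CACGTG core of that E-box is the letter pattern these factors read. In RefSeq promoter windows on GRCm38.p6, running from 250 bases before to 50 bases after the annotated start, 31 of the 35 genes had an entry. CACGTG, which reads the same on both strands, occurred in 12 of the 31 windows (38.7%), against 2187 of 27025 windows of all genes (8.09%). TCACGTGA, a longer form that contains it and also reads the same on both strands, was found in the 5 windows of Cln3, Ctsa, Ctsd, Gla and Mcoln1 (16.1%, against 1.12% of all windows). A match describes these letters and is not evidence of binding.
The stretches below hold a CACGTG, in capitals, for 6 genes taken in order of adjusted p for PP242 against DMSO in the 8-array fit. Each is written 5′ to 3′ on the strand of the gene and ends at or before the annotated start.
Sgsh, chr11:119355511-119355586, minus strand: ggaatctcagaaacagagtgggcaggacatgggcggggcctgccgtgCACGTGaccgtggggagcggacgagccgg
Glb1, chr9:114400983-114401077, plus strand: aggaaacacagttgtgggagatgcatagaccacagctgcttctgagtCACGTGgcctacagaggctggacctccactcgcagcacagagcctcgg
Cln3, chr7:126583333-126583432, minus strand: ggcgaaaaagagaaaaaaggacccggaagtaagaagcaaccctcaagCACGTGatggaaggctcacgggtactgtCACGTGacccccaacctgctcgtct
Gaa, chr11:119267776-119267875, plus strand: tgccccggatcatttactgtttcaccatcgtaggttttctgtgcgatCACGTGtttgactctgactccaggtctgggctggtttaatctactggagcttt
Naglu, chr11:101069974-101070073, plus strand: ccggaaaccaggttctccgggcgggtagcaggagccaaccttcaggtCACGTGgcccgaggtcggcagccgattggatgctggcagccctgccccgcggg
Mcoln1, chr8:3500401-3500500, plus strand: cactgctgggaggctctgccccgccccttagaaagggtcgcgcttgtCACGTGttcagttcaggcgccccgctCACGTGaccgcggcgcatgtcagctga
The Cln3 and Mcoln1 stretches each hold the core more than once. The core ended 23 bases before the annotated start in Sgsh and 42 bases before it in Glb1.

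The arrays differed in ways that bear on every value below. The ratio of the 75th to the 25th percentile of signal ranged between 251 and 406 on 8 arrays. On PP242 1, PP242 4, rapamycin 3 and DMSO 2 this ratio was 7.05 to 69.5, with dim probes raised, and 77.9% to 97.9% of probes were well above background, against 55.7% to 60.4% on the 8 arrays. The first fit therefore used the 8 arrays (PP242 2 and 3, rapamycin 1, 2 and 4, and DMSO 1, 3 and 4). The arrays numbered 4 stood apart for the lysosomal genes themselves, and PP242 has no such array among the 8. The main results are therefore also given for the 6 arrays that remain without replicate 4, and the counts and the genes named with all their values for all 12. Setting replicate 4 apart followed the values of these same genes, and the adjusted p-values of the 6-array fit do not allow for it. The 6 arrays are part of the 8, so these fits are not independent, and a call without replicate 4 is not a separate test. Values are log2 of the processed signal minus the 75th percentile of the same array, and they compare arrays for 1 probe, not 1 gene with another. The number of arrays limits the precision, with 2 PP242 arrays in both of the smaller fits. As a check of the labelled cell type, 12 of 14 fibroblast markers were well above background on all 8 arrays, against 3 of 12 macrophage, 1 of 10 epithelial and 2 of 9 osteoclast or melanocyte markers. In bulk RNA, fewer cells of a type and less RNA per cell cannot be told apart.

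**Figure D1:**
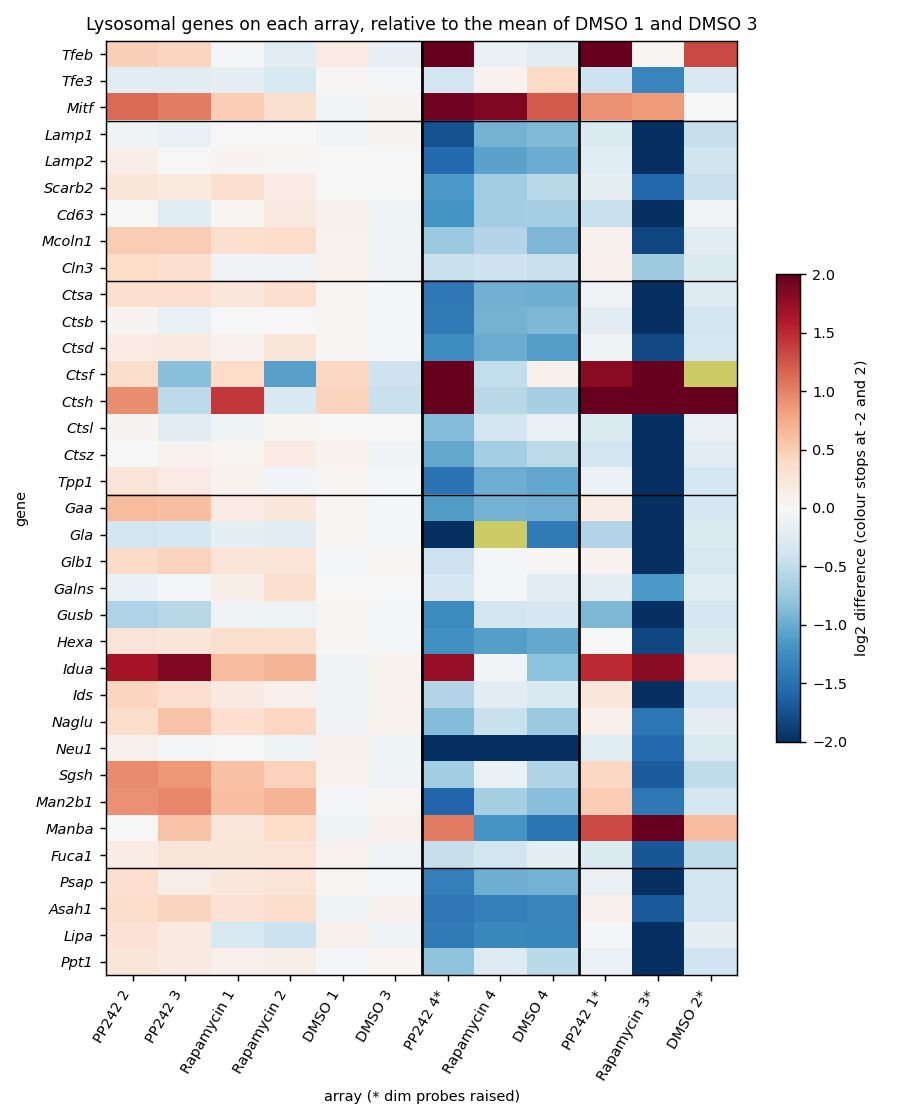
Log2 level of each of the 35 genes (rows, grouped by role) on each array (columns) as a difference from the mean of DMSO 1 and DMSO 3, with missing values in yellow. The columns from left are the 6 arrays without replicate 4, the arrays numbered 4, and the other arrays with raised dim probes. Most rows are blue in all arrays numbered 4, whereas in the left block Idua, Mitf, Sgsh and Man2b1 are red in PP242 and paler red in rapamycin.

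The arrays numbered 4 of rapamycin and DMSO held lower levels of most lysosomal genes. Rapamycin 4 was below the mean of rapamycin 1 and 2 for 31 of 33 genes, with a median difference of -0.82 on the log2 scale, where the median of all genes was 0.01. DMSO 4 was below the mean of DMSO 1 and 3 for 30 of 34 genes, with a median difference of -0.78, where the median of all genes was 0.04. The difference was below -0.5 for 22 of 33 lysosomal genes in rapamycin 4 and 23 of 34 in DMSO 4, where 16.2% and 13.4% of all genes were below it. Rapamycin 4 set against DMSO 4 gave a median of 0.00, with 17 genes above 0 and 16 below. PP242 4, where dim probes are also raised, was below the mean of PP242 2 and 3 for 30 of 34 genes, with a median of -1.28. There the median of all genes was -0.15, with 55.4% of them below 0. Arrays with raised dim probes that are not numbered 4 were also below the other arrays of their treatment. PP242 1 was below PP242 2 and 3 for 31 of 34 genes (median -0.29), where the median of all genes was -0.12 and 59.7% were below 0. Rapamycin 3 was below rapamycin 1 and 2 for 29 of 34 (median -2.10), where all genes had -0.77 and 58.6%. DMSO 2 was below DMSO 1 and 3 for 30 of 33 (median -0.31), where all genes had -0.26 and 75.5%. The median in DMSO 2 is thus near that of all genes. In PP242 the number 4 and the raised dim probes therefore cannot be told apart.
Neu1, the lysosomal sialidase, had the lowest such difference in both. It stood at 3.66, 4.00, 3.87 and 1.75 on PP242 arrays 1 to 4, at 3.90, 3.82, 2.35 and 1.42 on rapamycin arrays 1 to 4, and at 3.99, 3.61, 3.83 and 1.64 on DMSO arrays 1 to 4. In each treatment the array numbered 4 was the lowest of the 4. The main Neu1 probe differed by -2.27 and its other probe by -2.18 in DMSO 4 against DMSO 1 and 3. Asah1, the acid ceramidase, differed by -1.69 in rapamycin 4 and by -1.32 in DMSO 4. Mitf went the other way, with a difference of 1.46 in rapamycin 4 and 1.23 in DMSO 4. Of 19 usable other probes, 17 had the same sign as the main probe for DMSO 4, Glb1 and Tfe3 being the genes with another sign. DMSO 4 lay on the same slide as DMSO 1, so this difference was also present within a slide. Its cause was not tested. Neu1 and Asah1 are named after their values were seen.

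**Figure D2:**
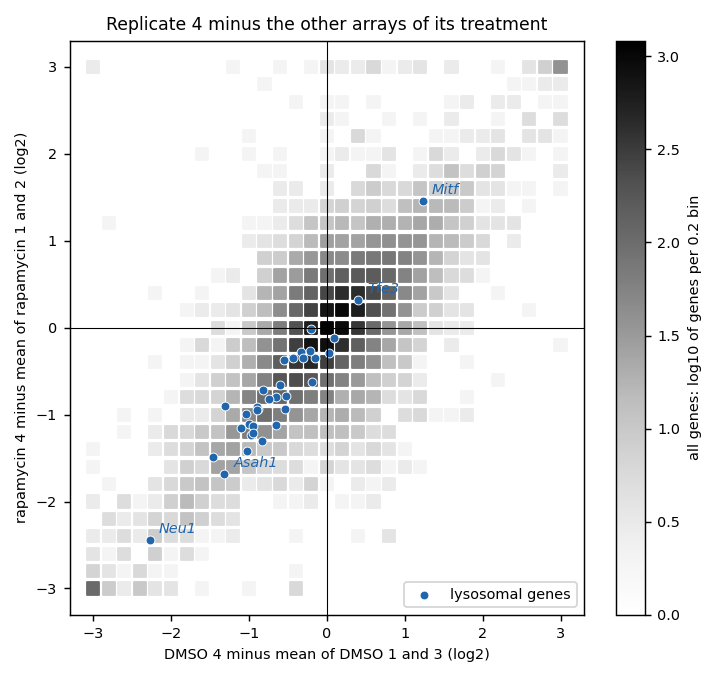
Difference of replicate 4 from the other arrays of its treatment among the 8, in DMSO (horizontal, log2) and in rapamycin (vertical, log2). Blue points are the lysosomal genes with a value in both, with Ctsh, which was not fitted, included and Gla, with no value for rapamycin 4, left out. Grey squares count all genes per bin, with values beyond 3 drawn at 3. Most blue points lie in the lower left, with Neu1 at the far end and Mitf in the upper right.

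With PP242, Idua, Sgsh and Glb1 rose on 8 arrays and in the part of these arrays without replicate 4, while Gusb and Gla fell without replicate 4. The 8 arrays hold DMSO 4 and rapamycin 4 but no PP242 4, so neither fit includes PP242 4. On PP242 4, Idua was above all DMSO arrays, while Sgsh and Glb1 were below them. On 8 arrays 4 of 34 genes rose and 0 fell, where 28.3% of all genes were called at an adjusted p under 0.05 (13.7% higher and 14.6% lower), so the share called was below the background. The 4 were Idua, Sgsh, Tfeb and Glb1. Without replicate 4, 14 of 34 rose and 3 fell, where 49.3% of all genes were called (26.1% higher and 23.2% lower). That is 50% of the lysosomal genes, near the background, with 41.2% higher and 8.82% lower. The median difference was 0.51 over the 34 genes and -0.01 over all genes on 8 arrays, and 0.23 against 0.00 without replicate 4. On all 12 arrays 0 lysosomal genes and 0.34% of all genes were called by limma, with medians of 0.12 for the lysosomal genes and 0.40 for all genes. All p-values are from limma after Benjamini-Hochberg adjustment across the genes fitted, and an error after a log2 change is its standard error.

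**Figure D3:**
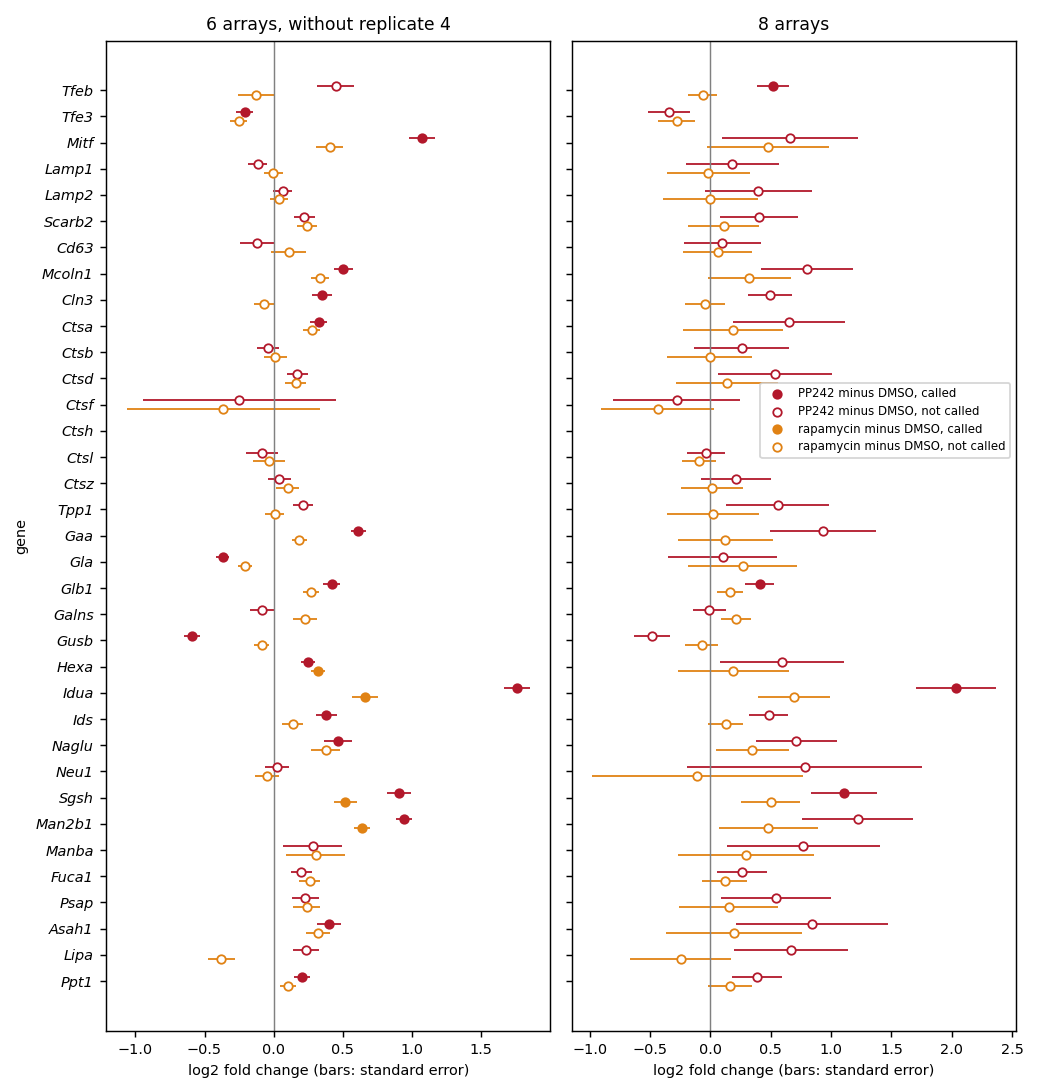
Log2 fold change of each gene for PP242 minus DMSO (red) and rapamycin minus DMSO (orange), with standard errors, in the fit of 6 arrays (left) and of 8 arrays (right). Filled points have an adjusted p under 0.05, and Ctsh was not fitted. Error bars are wider with 8 arrays for most genes, and Idua is the point farthest to the right in both.

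Idua encodes alpha-L-iduronidase, which removes iduronic acid from heparan and dermatan sulfate. Its level was -2.42, -2.25, -2.05 and -2.17 on PP242 arrays 1 to 4, -3.28, -3.23, -2.11 and -3.97 on rapamycin arrays 1 to 4, and -3.98, -3.75, -3.85 and -4.73 on DMSO arrays 1 to 4. Every PP242 array was above every DMSO array. The Idua probe is dim, however, and PP242 1 and 4 have raised dim probes. On those arrays the treatment and the raised dim probes cannot be told apart. Rapamycin 3, which also has raised dim probes, stood at -2.11, above the -3.28 and -3.23 of rapamycin 1 and 2. Idua rose by 2.03 ± 0.33 with PP242 on 8 arrays (4.09-fold, limma adjusted p = 0.00582) and by 1.76 ± 0.09 without replicate 4 (3.39-fold, limma adjusted p = 0.000743). On 12 arrays the difference was 1.85 ± 0.39 and missed the threshold (limma adjusted p = 0.091).

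Sgsh encodes N-sulfoglucosamine sulfohydrolase, which acts on heparan sulfate. It stood at 1.03, 1.57, 1.48 and -0.08 on PP242 arrays 1 to 4, at 1.20, 1.07, -1.05 and 0.48 on rapamycin arrays 1 to 4, and at 0.68, 0.12, 0.55 and 0.02 on DMSO arrays 1 to 4. PP242 1, 2 and 3 were above all DMSO arrays and PP242 4 was below them. Sgsh rose by 1.105 ± 0.27 with PP242 on 8 arrays (2.15-fold, limma adjusted p = 0.0257) and by 0.91 ± 0.08 without replicate 4 (1.87-fold, limma adjusted p = 0.00211). On 12 arrays the difference was 0.65 ± 0.53 (limma adjusted p = 0.794). Its other probe differed by 0.60 in the same 6 arrays.

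Glb1 encodes lysosomal beta-galactosidase. It stood at 2.51, 2.82, 2.90 and 2.02 on PP242 arrays 1 to 4, at 2.70, 2.72, 0.36 and 2.42 on rapamycin arrays 1 to 4, and at 2.42, 2.12, 2.47 and 2.47 on DMSO arrays 1 to 4. PP242 1, 2 and 3 were above all DMSO arrays and PP242 4 was below them. Glb1 rose by 0.41 ± 0.12 on 8 arrays (1.33-fold, limma adjusted p = 0.0428) and by 0.42 ± 0.06 without replicate 4 (limma adjusted p = 0.00612). On 12 arrays the difference was 0.19 ± 0.49 (limma adjusted p = 0.871). DMSO 4 differed from DMSO 1 and 3 by 0.03 for this gene, and its other probe differed by 0.41 between PP242 and DMSO in the 6 arrays.

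The transcription factors differed among themselves. Tfeb, which encodes the factor most closely tied to lysosomal genes, had a dim probe, at -1.88, -3.55, -3.59 and -1.03 on PP242 arrays 1 to 4, at -4.06, -4.24, -3.99 and -4.16 on rapamycin arrays 1 to 4, and at -3.86, -2.70, -4.18 and -4.23 on DMSO arrays 1 to 4. The PP242 1, PP242 4, rapamycin 3 and DMSO 2 values are from arrays with raised dim probes. Of these, rapamycin 3 was at -3.99, against -4.06 and -4.24 on rapamycin 1 and 2. Among the other 8 arrays every PP242 value was above every other value. Tfeb rose by 0.52 ± 0.13 with PP242 on 8 arrays (1.43-fold, limma adjusted p = 0.0301), whereas without replicate 4 the difference was 0.45 ± 0.13 and just missed the threshold (limma adjusted p = 0.0505). On 12 arrays, with the raised dim probes, the difference was 1.23 ± 0.58 (limma adjusted p = 0.618). It was called in 0 of the 5 scalings tried without replicate 4.

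Tfe3, a paralogue of Tfeb, stood at -0.11, 0.09, 0.09 and -0.06 on PP242 arrays 1 to 4, at 0.10, 0.00, -1.01 and 0.37 on rapamycin arrays 1 to 4, and at 0.32, -0.01, 0.28 and 0.71 on DMSO arrays 1 to 4. PP242 2 and 3 lay below DMSO 1, 3 and 4. Its difference with PP242 was -0.34 ± 0.17 on 8 arrays (limma adjusted p = 0.188), and it fell by 0.21 ± 0.06 without replicate 4 (limma adjusted p = 0.0496). That call was made in 2 of the 5 scalings tried, and the difference on 12 arrays was -0.32 ± 0.32 (limma adjusted p = 0.794).
Mitf, the family member known for melanocytes and osteoclasts, stood at -1.45, -1.24, -1.35 and -0.42 on PP242 arrays 1 to 4, at -1.87, -2.06, -1.51 and -0.51 on rapamycin arrays 1 to 4, and at -2.43, -2.38, -2.32 and -1.14 on DMSO arrays 1 to 4. PP242 1, 2 and 3 were above DMSO 1, 2 and 3, while DMSO 4 was above those PP242 arrays and PP242 4 above all DMSO arrays. Mitf rose by 1.07 ± 0.10 without replicate 4 (2.10-fold, limma adjusted p = 0.00187), and the difference was 0.66 ± 0.56 on 8 arrays (limma adjusted p = 0.434) and 0.95 ± 0.43 on 12 arrays (limma adjusted p = 0.589). A second Mitf probe differed by 0.11 in the same 6 arrays, so the probes of this gene disagree on the size.

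**Figure D4:**
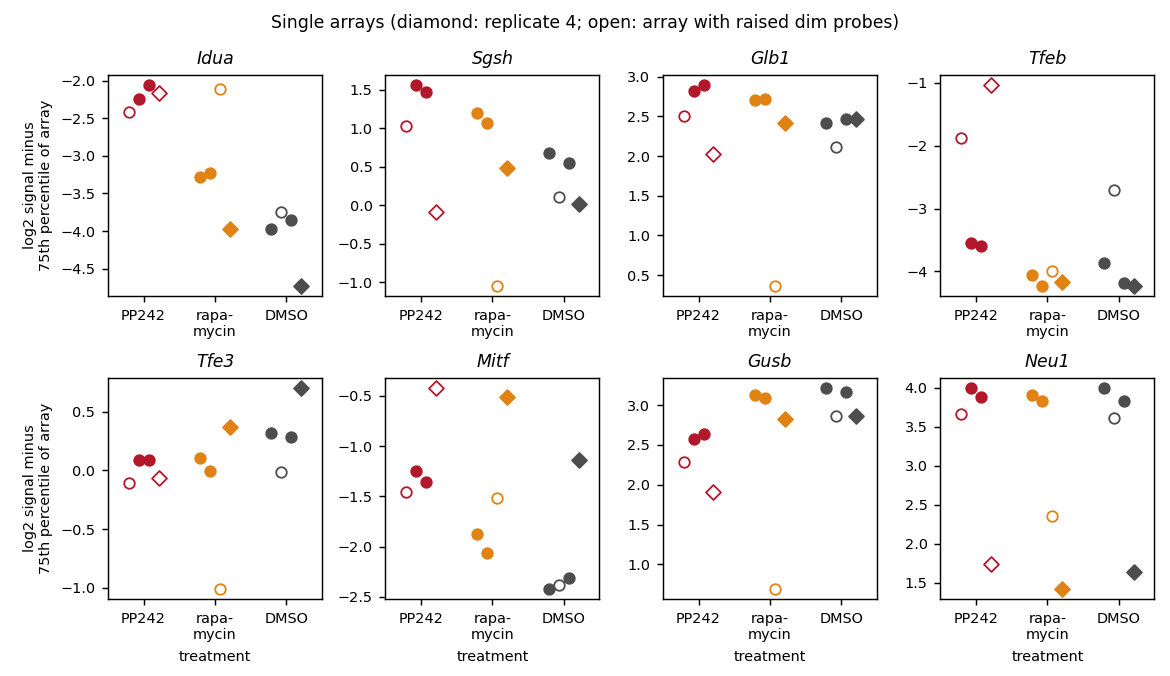
Log2 level minus the 75th percentile of the array for 8 genes on all 12 arrays, by treatment (PP242, rapamycin, DMSO). Circles are replicates 1 to 3 and diamonds replicate 4, and open symbols mark arrays with raised dim probes. PP242 lies above DMSO for Idua on every array, with PP242 1 and 4 among the open symbols. The diamonds of Neu1 lie far below its filled circles and those of Mitf far above.

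Among the 14 glycosidases and sulfatases, 3 rose and 0 fell with PP242 on 8 arrays, and 8 rose and 2 fell without replicate 4. Of all genes, 13.7% rose and 14.6% fell on 8 arrays, and 26.1% rose and 23.2% fell without replicate 4. The 8 were Idua, Sgsh and Glb1 with Man2b1, Gaa, Naglu, Ids and Hexa. Man2b1, a lysosomal alpha-mannosidase, was at 4.08 and 4.12 on PP242 2 and 3, against 3.14 and 3.18 on DMSO 1 and 3. It rose by 0.94 ± 0.06 without replicate 4 (1.92-fold, limma adjusted p = 0.000923), with a difference of 1.22 ± 0.46 on 8 arrays (limma adjusted p = 0.0951).
Gaa, the acid alpha-glucosidase that degrades glycogen, was at 4.10 and 4.07 on PP242 2 and 3, against 3.50 and 3.44 on DMSO 1 and 3. It rose by 0.61 ± 0.05 in that fit (1.53-fold, limma adjusted p = 0.00187). Naglu, a heparan sulfate glucosaminidase, rose by 0.46, Ids, the iduronate sulfatase, by 0.38, and Hexa, the alpha subunit of beta-hexosaminidase, by 0.25. Of 3 other Ids probes, those with differences of 0.58 and 0.49 had the sign of the main probe and the last, at -0.10, did not.
The genes that fell were Gusb and Gla. Gusb, the beta-glucuronidase, was at 2.57 and 2.63 on PP242 2 and 3, against 3.22 and 3.17 on DMSO 1 and 3. It fell by 0.59 ± 0.06 without replicate 4 (limma adjusted p = 0.00221), and on 8 arrays the difference was -0.48 ± 0.15 (limma adjusted p = 0.0545). Gla, the alpha-galactosidase A, was at 3.21 and 3.23 on PP242 2 and 3, against 3.61 and 3.57 on DMSO 1 and 3, and it fell by 0.37 ± 0.05 (limma adjusted p = 0.00558). With DMSO 4 at 2.18 and no value for rapamycin 4, its difference on 8 arrays was 0.10 ± 0.45. Galns, Neu1, Manba and Fuca1 were not called in either fit, with differences between -0.08 and 0.28 without replicate 4. Manba was well above background on 6 of the 8 arrays.

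The 6 membrane proteins included no call on 8 arrays and 2 rises without replicate 4. Of all genes, 28.3% and 49.3% were called in these fits (13.7% and 26.1% higher). Mcoln1, the calcium channel TRPML1, rose by 0.50 ± 0.07 (limma adjusted p = 0.00493), and Cln3, a multipass protein mutated in juvenile Batten disease, rose by 0.35 ± 0.07 (limma adjusted p = 0.0183). Mcoln1 was at 3.76 and 3.75 on PP242 2 and 3, against 3.31 and 3.18 on DMSO 1 and 3. Lamp1, Lamp2, the glucocerebrosidase receptor Scarb2 and the tetraspanin Cd63 were not called, with differences between -0.12 and 0.22. Lamp1, the abundant membrane glycoprotein often used to mark lysosomes, was at 5.78 and 5.70 on PP242 2 and 3, against 5.80 and 5.91 on DMSO 1 and 3. The second Lamp2 probe differed by 0.40 where the main probe differed by 0.06.

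Of the 7 proteases fitted, 0 were called on 8 arrays, where 28.3% of all genes were called. Without replicate 4, where 49.3% of all genes were called, the protease called was Ctsa, so the share was below the background. Ctsa, the protective protein of beta-galactosidase and sialidase, rose by 0.32 ± 0.06 (limma adjusted p = 0.0162). Its 2 other probes differed by 0.37 and -0.09. The cathepsins Ctsb, Ctsd, Ctsf, Ctsl and Ctsz and the tripeptidyl peptidase Tpp1 had differences between -0.25 and 0.21 and were not called. In other scalings of the 6 arrays Ctsd and Tpp1 were each called higher in 3 of 5. The other Ctsb probe differed by -0.65, where the main probe differed by -0.04, and the other Tpp1 probe by 0.73, where the main probe differed by 0.21. Ctsh was at -4.74, -6.83, -8.27 and -3.47 on PP242 arrays 1 to 4 and at -7.31, -5.63, -8.20 and -8.41 on DMSO arrays 1 to 4, and no fold is given for a probe not well above background on 7 of the 8 arrays.

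Of the 4 lipid hydrolases, thioesterases or activators, 0 were called on 8 arrays and 2 rose without replicate 4. The shares of all genes called were 28.3% and 49.3% (13.7% and 26.1% higher). Asah1 rose by 0.40 ± 0.09 (limma adjusted p = 0.0216) and Ppt1, the palmitoyl-protein thioesterase, by 0.20 ± 0.06 (limma adjusted p = 0.0465). Lipa, the acid lipase, and Psap, the precursor of the saposins, each had a difference of 0.23 and were not called.

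Arrays with raised dim probes were also set against DMSO arrays one by one. PP242 1 and DMSO 2, which neither of these fits used, both have raised dim probes, to different degrees. PP242 1 minus DMSO 2 was above 0 for 27 of 33 lysosomal genes, with a median of 0.26, where that of all genes was 0.25. It was 1.33 for Idua, 0.93 for Mitf, 0.91 for Sgsh, 0.85 for Man2b1 and 0.49 for Gaa, and -0.57 for Gusb and -0.31 for Gla. PP242 4 minus DMSO 4, where the arrays differ in dim probes, was above 0 for 7 of 34, with a median of -0.26 where that of all genes was -0.15. It was 2.56 for Idua, whose probe is dim, and 0.72 for Mitf. For other genes it was below 0, at -0.75 for Man2b1, -0.17 for Gaa, -0.11 for Sgsh, -0.45 for Glb1, -0.95 for Gusb and -0.87 for Gla.

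Slides also bear on the comparison. On slide 1, PP242 2 minus DMSO 1 was above 0 for 26 of 34 lysosomal genes with a median of 0.23, and PP242 2 minus the mean of DMSO 1 and 4 had a median of 0.58. PP242 and DMSO shared no other slide among the 8 arrays. With slide as a block, 0 of 34 genes were called for PP242 against DMSO by limma, where 9.44% of all genes were called, and Idua differed by 1.87 ± 0.42 (limma adjusted p = 0.0635).

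Rapamycin changed no lysosomal gene past the threshold on 8 arrays and raised 4 without replicate 4. On 8 arrays 0 of 34 genes were called by limma, and 0 had an unadjusted p under 0.05, where 0.21% of all genes were called (0.145% higher and 0.0645% lower). Without replicate 4, Idua, Man2b1, Sgsh and Hexa rose and 0 fell, where 11.2% of all genes were called (7.06% higher and 4.18% lower). The 4 calls are 11.8% of the 34 genes, near the background. On 12 arrays 0 were called, as were 0% of all genes, and on 8 arrays with slide as a block 0 were called as well. The median difference over the 34 genes was 0.12 on 8 arrays and 0.15 without replicate 4, against -0.02 and 0.00 over all genes.

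The rapamycin and PP242 comparisons share the DMSO arrays, so their values are not independent. Idua rose by 0.66 ± 0.09 with rapamycin (1.58-fold, limma adjusted p = 0.0332). Man2b1, at 3.76 and 3.84 on rapamycin 1 and 2, rose by 0.64 ± 0.06 (1.56-fold, limma adjusted p = 0.0186). Sgsh rose by 0.52 ± 0.08 (limma adjusted p = 0.0394) and Hexa by 0.32 ± 0.05 (limma adjusted p = 0.0379). Mcoln1 had a difference of 0.33 ± 0.07 and just missed the threshold (limma adjusted p = 0.0506). Lipa had a difference of -0.38 ± 0.10 with rapamycin (limma adjusted p = 0.0789), against 0.23 with PP242. The differences of Tfeb, Tfe3 and Mitf were -0.13, -0.25 and 0.40, none of them called.
Between arrays on 1 slide, rapamycin 1 minus DMSO 1 had a median of 0.13 over the 34 genes. Rapamycin 4 minus DMSO 3, on slide 3, had a median of -0.61, and it sets an array numbered 4 against one that is not.

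**Figure D5:**
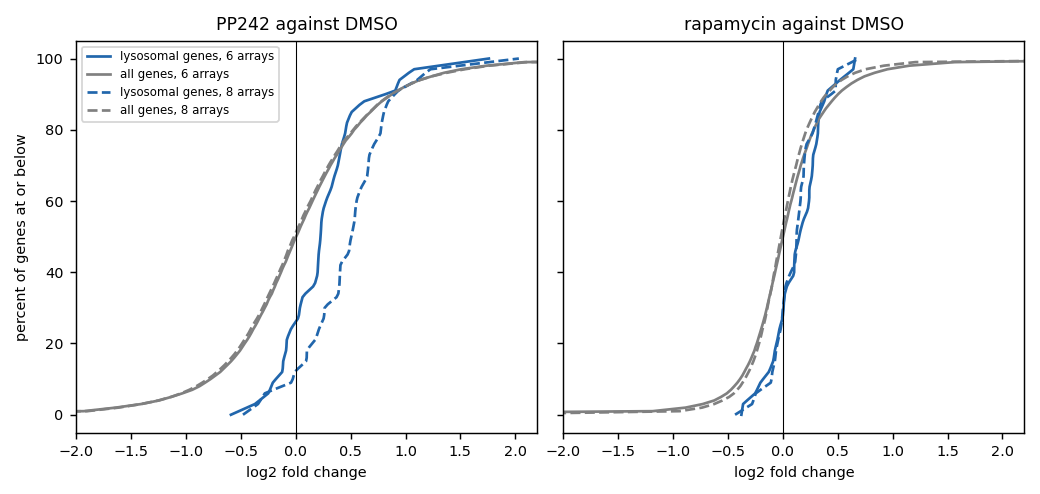
Percent of genes at or below each log2 fold change for PP242 against DMSO (left) and rapamycin against DMSO (right), for the 34 lysosomal genes (blue) and all genes (grey). Solid lines are the 6 arrays without replicate 4 and dashed lines the 8 arrays. For PP242 the dashed blue line lies right of the solid one, with medians of 0.51 and 0.23, while the grey lines nearly coincide.

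PP242 and rapamycin were also compared with each other, at single doses of different size. On 8 arrays Idua and Tfeb were higher with PP242 and 0 genes were lower, where 15.5% of all genes were called (7.4% higher and 8.07% lower). Idua was 2.53-fold higher (log2 difference 1.34 ± 0.33, limma adjusted p = 0.0407) and Tfeb 1.49-fold higher (0.58 ± 0.13, limma adjusted p = 0.033). Both were also called without replicate 4, with log2 differences of 1.102 ± 0.09 for Idua (limma adjusted p = 0.00335) and 0.58 ± 0.13 for Tfeb (limma adjusted p = 0.0339).
In that smaller fit 8 genes were higher and 1 lower with PP242 than with rapamycin, where 35.9% of all genes were called (19% higher and 16.9% lower). The others that were higher are Mitf, Lipa, Gaa, Cln3, Sgsh and Man2b1, with log2 differences between 0.30 and 0.67, and Gusb was lower, at -0.50. On slides 1 and 2, which each hold 1 PP242 and 1 rapamycin array of the 6, the differences of Idua were 1.03 and 1.17 and those of Tfeb 0.51 and 0.64. The medians over the 34 genes were 0.09 on slide 1 and 0.08 on slide 2, against 0.38 in the 8-array fit, which holds rapamycin 4 and no PP242 4.
On 12 arrays 0 of the 35 genes were called by limma, as were 0% of all genes.

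Of the 16 genes with a promoter window that were called for PP242 against DMSO without replicate 4, 8 windows held CACGTG. Of the 15 not called, 4 did. Gla, which fell, holds the longer TCACGTGA, as do Mcoln1, Cln3 and Ctsa, which rose, and Ctsd, which was not called. Idua, with the largest rise, has no CACGTG in its window.

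Other genes of the lysosomal pathway were read from 5 further lists, whose counts stand beside 28.3% of all genes called for PP242 against DMSO on 8 arrays and 49.3% without replicate 4. Of 35 other hydrolases and their cofactors measured, 7 rose and 0 fell with PP242 on 8 arrays, and 17 rose and 1 fell without replicate 4, which is 20% and 51.4% called. Ctso, a cysteine cathepsin, rose by 1.79 ± 0.27, and the lysosomal phospholipase Pla2g15 by 0.71 ± 0.09 on 8 arrays (limma adjusted p = 0.00474 and 0.00225). Of 37 other membrane proteins, 6 rose and 0 fell on 8 arrays, and 18 rose and 3 fell without replicate 4, which is 16.2% and 56.8% called.
Tmem175, a lysosomal potassium and proton channel, rose by 1.88 ± 0.13 on 8 arrays (limma adjusted p = 0.000403) and by 1.84 ± 0.06 without replicate 4, and it was also called on 12 arrays, where it rose by 1.62 ± 0.26 (limma adjusted p = 0.0397). Abcb9, a lysosomal peptide transporter, rose by 2.45 ± 0.49 on 8 arrays (limma adjusted p = 0.0118). With rapamycin, Tmem175 rose by 0.95 ± 0.06 without replicate 4 (limma adjusted p = 0.0137).
Of 24 genes for sorting to lysosomes, 3 rose and 1 fell with PP242 on 8 arrays, and 11 rose and 5 fell without replicate 4, which is 16.7% and 66.7% called. Cln6, an endoplasmic reticulum protein needed for export of lysosomal enzymes, rose by 0.96 ± 0.14, and M6pr, the small mannose 6-phosphate receptor, fell by 0.41 ± 0.08 on 8 arrays. Of 19 genes that control TFEB, 2 rose and 4 fell on 8 arrays, and 4 rose and 4 fell without replicate 4, which is 31.6% and 42.1% called. Within GATOR1, the complex that restrains mTORC1 when amino acids are low, Depdc5 fell by 1.63 ± 0.18 while Nprl2 rose by 0.48 ± 0.08 and Nprl3 by 0.53 ± 0.13 on 8 arrays. The Depdc5 probe was dim, with a mean level of -6.29 over the 8 arrays, so the size of its fall is uncertain. Ywhae, a 14-3-3 protein, fell by 0.46 ± 0.09.
Of 18 targets of the family outside the lysosome, 2 rose and 0 fell on 8 arrays, and 9 rose and 3 fell without replicate 4, which is 11.1% and 66.7% called. The 2 were Wipi1, which acts in autophagosome formation and rose by 0.73 ± 0.17, and Pmel, the melanosome fibril protein, which rose by 0.93 ± 0.19. On 12 arrays Tmem175 was the gene of these 5 lists that was called for PP242 against DMSO. With rapamycin 0 genes of these 5 lists were called on 8 arrays. The osteoclast or melanocyte markers, 9 on the array, were not well above background on any of the 8 arrays for 2 genes and stood between -8.52 and -3.32 in level, and Pmel is one of them. Of 4 macrophage markers measured with PP242 on 8 arrays, Aif1 rose by 1.82 ± 0.28 while Cd14 fell by 0.99 ± 0.08 and Csf1r fell by 0.37 ± 0.09, and 3 of the 12 on the array were well above background on no array. Of the fibroblast markers, Pdgfra rose by 0.96 ± 0.28 and Pdgfrb by 0.81 ± 0.17 with PP242 on 8 arrays, and the others were not called. The part of these markers in the lysosomal results was not tested.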

How the data were processed

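The intensity values are the processed signals of Agilent Feature Extraction, which per the file headers had subtracted background within each array. The headers name version 10.5.1.1 and the submitters' processing notes 10.1. The deposited table of log2 values, whose columns have medians of 8.54 to 8.56, ranked probes as the scanner's median signal did and was used as an alternative only. Neither states how it was normalized.

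Each of the 45018 spots was kept unless it was 1 of 1639 control spots or marked as an outlier (1.34% of values, 2 of them of the 35 genes). Spots of 1 probe were averaged. Of 26382 probes with a RefSeq accession, 24844 matched a symbol. Probes that matched no symbol were kept under their array identifier, and each such identifier counted as 1 gene in the fits and background shares. Log2 intensity minus the 75th percentile of the array was fitted with limma 3.58.1 (lmFit and eBayes, R 4.3.3) on arrays with a percentile ratio above 100, with a probe kept if well above background on at least 3 of 8 arrays. Saturated spots numbered 0. The test was checked on simulated data for PP242 against DMSO over 18316 genes: 200 genes each moved by 0.5, 1 or 2 on the log2 scale were called in 0%, 43% and 74.5% of cases. False calls numbered 0, 2 and 14. Far fewer genes were moved there than the 28.3% called in the data, and the adjustment depends on that share. The simulated shares therefore do not give the sensitivity of the real fit. PP242 is 2 µM in the sample characteristics and 2 mM in the treatment protocol, and 2 µM is used here. The genes and lists were chosen with earlier results of these data known. Values on every array were given for the TFEB family and for genes called on 8 arrays, and other genes by counts or where called. From each further list up to 4 called genes were eligible in order of adjusted p. Alternatives covered scaling, background, filters, probes, slides, replicate number and left-out arrays. Figures were drawn with matplotlib 3.10.9.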

Additional observations from a re-analysis of the deposited data

Results flagged for a closer look

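A gap test (Dixon's, at its 95% critical value for 4 arrays) was made in each treatment for each gene with 4 values. It marked 11 of 103 tests, where chance marks about 1 in 20 independent tests. Genes on 1 array are not independent, and every mark fell on an array numbered 4 or with raised dim probes. The count therefore cannot be set against chance. On PP242 4 the marked levels were 4.1067 for Lamp1, 1.3028 for Gla and 1.7452 for Neu1, each the lowest of the 4 PP242 arrays. On rapamycin 3, the array with the lowest percentile ratio, they were 4.4895 for Ctsl, 0.3592 for Glb1, 0.6857 for Gusb, 1.1087 for Ids and 0.9946 for Ppt1, each the lowest of the 4 rapamycin arrays. In DMSO, array 4 was marked for Mitf, which was highest there at -1.1375, and for Neu1, which was lowest there at 1.6394, and array 2 for Glb1, which was lowest there at 2.1162.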

How the results depend on the processing

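Without the replicate 4 arrays the fits called 9431 genes for PP242 against DMSO, 2150 for rapamycin against DMSO and 6868 for PP242 against rapamycin, where the 8 arrays gave 5260, 39 and 2877, and 17, 4 and 9 lysosomal genes, where the 8 arrays gave 4, 0 and 2. Of the lysosomal calls on 8 arrays, 3 of 4 for PP242 against DMSO and 2 of 2 for PP242 against rapamycin were shared. All 12 arrays gave 87, 0 and 0 genes, 36, 0 and 0 with quantile normalisation, and 0, 0 and 0 when the replicate 4 arrays were left out of the 12, with 0 lysosomal genes each time. Their all-gene median for PP242 against DMSO was 0.40 on 12 arrays. Array weights gave 10205, 2896 and 8852 genes and 12, 2 and 10 lysosomal genes, in a weight fit that did not converge fully.
In the 8 arrays, slide as a block gave 1755, 0 and 647 genes and 0 lysosomal genes. Median centring gave 1 lysosomal gene for PP242 against each other group, 3 genes for rapamycin against DMSO (1 higher and 2 lower, where the first fit gave 27 and 12) and 1857 for PP242 against rapamycin. No filter on dim probes gave 1 and 0 lysosomal genes for PP242 against DMSO and against rapamycin, 0 genes for rapamycin against DMSO and 1649 for PP242 against rapamycin. For rapamycin against DMSO, quantile normalisation gave 20 genes, the deposited values 10, a filter on every array 66 and a fit of the groups compared 0. For PP242 against rapamycin, quantile normalisation, normexp with it, the deposited table and a fit of the groups compared gave 1 lysosomal gene each.
Same-numbered arrays did not all deviate together: correlations across genes were 0.58 and 0.71 for numbers 1 and 4 of rapamycin and DMSO, 0.16 for number 3 of PP242 and DMSO and -0.31 for number 2 of PP242 and rapamycin, where the 2 PP242 arrays mirror each other by construction. Rapamycin and DMSO arrays of different number, neither numbered 4, had correlations of 0.25 to 0.48. Rapamycin and DMSO pairs of different number with 1 array numbered 4 had -0.59 to -0.48. Pairs of a PP242 array with rapamycin 4 or DMSO 4 had -0.06 to 0.06. Deviations within a treatment sum to 0, so the shared difference of the arrays numbered 4 also bears on the value for number 1. Whether the numbers pair the samples is thus not settled. With a replicate block 0 genes were called for rapamycin against DMSO and 1890 for PP242 against rapamycin, with 8 lysosomal genes (7 higher, 1 lower) for PP242 against DMSO and 1 against rapamycin.
Leaving out each of the 8 arrays in turn gave 2027 to 6246, 0 to 104 and 605 to 3639 genes, and 0 to 7, 0 and 0 to 3 lysosomal genes; 0 remained for PP242 against DMSO without PP242 3, 1 without PP242 2 or DMSO 3, 2 without rapamycin 1 or 2, and 7 without rapamycin 4. The median difference for rapamycin against DMSO was -0.16 without DMSO 4 and 0.33 without rapamycin 4.
Alternatives chosen after seeing the data changed the scaling without replicate 4. They gave 21 lysosomal genes with quantile normalisation, 8 with median centring, 22 with the mean over probes and 21 with normexp for PP242 against DMSO, then 6, 0, 4 and 3 for rapamycin against DMSO and 12, 8, 10 and 10 for PP242 against rapamycin. With the 75th percentile and with these 4, Idua, Sgsh, Gaa, Man2b1, Mcoln1 and Mitf were called higher and Gusb and Gla lower each time for PP242 against DMSO. The 6 differences called on 8 arrays (Idua, Sgsh, Tfeb and Glb1 for PP242 against DMSO, Idua and Tfeb for PP242 against rapamycin) kept their sign over 27 alternatives. Their calls were kept less often. For PP242 against DMSO, Idua was called in 22 of the 27, Sgsh in 18, Glb1 in 12 and Tfeb in 5. For PP242 against rapamycin, Idua and Tfeb were each called in 12. Most alternatives use the same arrays. Gla, not called on 8 arrays at 0.10, was called at -0.37 without replicate 4. Why the counts moved was not tested.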
